A study of Mus musculus with 18 samples.

Results

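The comparison described here set 3 libraries from ES cells given Fgf2 and Activin A together against 3 libraries from ES cells given the solvent DMSO alone. These are 6 of the 18 samples of the series. They were chosen by their labels, and the question they address is which transcripts respond to the joint growth factors in cultures that polarise under both conditions. All 6 samples were wild-type E14 mouse ES cells of the labelled passage 20, kept beforehand in 2i with Lif and then embedded in Matrigel, a basement-membrane hydrogel, for 48 h in N2B27 medium. The Fgf2/Activin samples received Activin A at 20 ng/ml with Fgf2 at 12 ng/ml, and the DMSO samples received neither. All came from a single cell line, and the 2 factors were given only together, so the response to either alone cannot be told apart.

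Activin A and Nodal bind type II and type I receptor kinases, which phosphorylate Smad2 and Smad3. These join Smad4, enter the nucleus and act with cofactors such as Foxh1, and among their best-known targets are their own antagonists, Lefty1 and Lefty2. Fgf2 acts through Fgf receptors and the Mek-Erk cascade, whose targets include immediate early genes and the Sprouty and Dusp feedback inhibitors. Given together, the factors are widely used to move naive ES cells towards an epiblast-like state.

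The libraries held between 25706865 and 37158661 counts. A gene was called when its Benjamini-Hochberg adjusted p in edgeR's quasi-likelihood test was under 0.01 and its absolute log2 fold change exceeded 1, with the replicate number as a block. Replicate 1 stood apart from replicates 2 and 3: the SD across genes of the log2 difference was 0.37 to 0.56 between replicate 1 and another replicate of the same group, and 0.13 to 0.23 between replicates 2 and 3. The same held in the other wild-type groups, CH and 2i. The test was fitted on the wild-type libraries of every group, CH and 2i included. With the replicate block, its p-values measure the spread left after the shift shared by same-numbered samples is removed. That residual spread is not the spread between replicates given above. The labels do not say that replicates came from separate cultures, so the residual spread may be technical. Levels are given in CPM, read counts scaled to a common library size by TMM, in the order replicate 1, 2 and 3.

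Of 16413 genes tested, 275 were higher in Fgf2/Activin (1.68% of those tested) and 149 were lower (0.908%), 424 or 2.58% in all. The median log2 fold change over all tested genes was -0.02. Among called genes, 48 rose by more than 3 on the log2 scale and 10 fell by more than 3. Every called gene moved in the called direction in all 3 replicate pairs, 275 of 275 and 149 of 149. The calls came from a blocked test on these same pairs, so this is a description and no separate support. Without the replicate block the counts were 148 higher and 57 lower. Without replicate 1 of both groups, a setting added after seeing the data, they were 287 and 154, and these included 248 of the 275 and 115 of the 149.

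Genes of the Activin/Nodal pathway were among those that rose most. Of 31 tested members, 9 rose and none fell, against 1.68% higher and 0.908% lower over all tested genes. A further 7 members were not tested. The median of the 31 was 0.28. The members that rose were antagonists, ligands, a co-receptor and feedback or target genes. Receptors, the Smads that carry the signal and Foxh1 were not called.

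Lefty1 and Lefty2 encode secreted inhibitors of Nodal. Lefty1 (chr1:180935022-180938400) was at 1.28, 1.28 and 0.347 CPM in DMSO and at 173, 144 and 148 CPM in Fgf2/Activin, a log2 fold change of 7.29 (SE 0.31, adjusted p = 2.0e-07, edgeR). Lefty2 (chr1:180893108-180899103) was at 0.454, 0.970 and 0.116 CPM in DMSO and at 120.3, 149.8 and 139 CPM in Fgf2/Activin, a log2 fold change of 7.997 (SE 0.28, adjusted p = 5.4e-08, edgeR). In both genes every Fgf2/Activin sample lay far above every DMSO sample. Transcripts of Lefty1 and Lefty2 share a stretch of 451 bases at 97.6% identity, so some reads may be assigned to either gene.

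Nodal itself, the ligand, rose from 10.4, 7.64 and 5.59 CPM to 61.8, 62.3 and 56.9 CPM (log2 fold change 2.94, SE 0.19, adjusted p = 4.8e-06, edgeR). Tdgf1, the Nodal co-receptor Cripto, was uneven in DMSO, at 50.4, 112 and 21.9 CPM, and even in Fgf2/Activin, at 446, 430.3 and 391 CPM. Its log2 fold change was 2.91 (SE 0.43, adjusted p = 0.0013, edgeR). The pseudogene Tdgf1-ps1, which matches Tdgf1 over 512 bases at 98.8% identity, had a log2 fold change of 3.13, and reads of the pair cannot be told apart over that stretch. Tgfb1, another ligand of the superfamily, was low, at 1.17, 1.66 and 2.62 CPM in DMSO and 2.89, 4.63 and 4.35 CPM in Fgf2/Activin. Its log2 fold change of 1.15 fell to 0.96 without DMSO replicate 2 and then missed the minimum fold change, and its adjusted p was 0.12 without the replicate block.

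The intracellular feedback genes rose with the antagonists. Smad7, an inhibitory Smad, went from 2.62, 2.35 and 1.12 CPM to 88.3, 75.1 and 76.3 CPM (log2 fold change 5.27, SE 0.19). Pmepa1, a membrane protein that limits Smad activation, went from 0.560, 0.313 and 0.270 CPM to 35.5, 21.0 and 22.2 CPM (6.04, SE 0.24). Skil, a Smad co-repressor, was already present in DMSO at 166, 257 and 164 CPM and reached 432, 429 and 433 CPM (1.16, SE 0.14). In all 3 genes the groups did not overlap, as in 24.3% of all tested genes.

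The machinery that carries the signal was not called. The type I receptor Acvr1b was at 39.3, 41.3 and 37.4 CPM in DMSO and 36.5, 38.2 and 37.6 CPM in Fgf2/Activin, a log2 difference of -0.07 (SE 0.15). The type II receptor Acvr2b differed by 0.06 (SE 0.09), Smad2 by -0.02 (SE 0.07) and Smad4 by -0.07 (SE 0.06). Foxh1 was lower in each Fgf2/Activin sample, at 70.7 to 81.4 CPM against 93.6 to 100.1 CPM, but its log2 difference of -0.35 (adjusted p = 0.0067, edgeR) did not reach the minimum fold change. Eomes, a T-box factor of the mesendoderm, overlapped between groups at 8.33 to 13.3 CPM and 10.9 to 16.2 CPM.

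**Figure D1:**
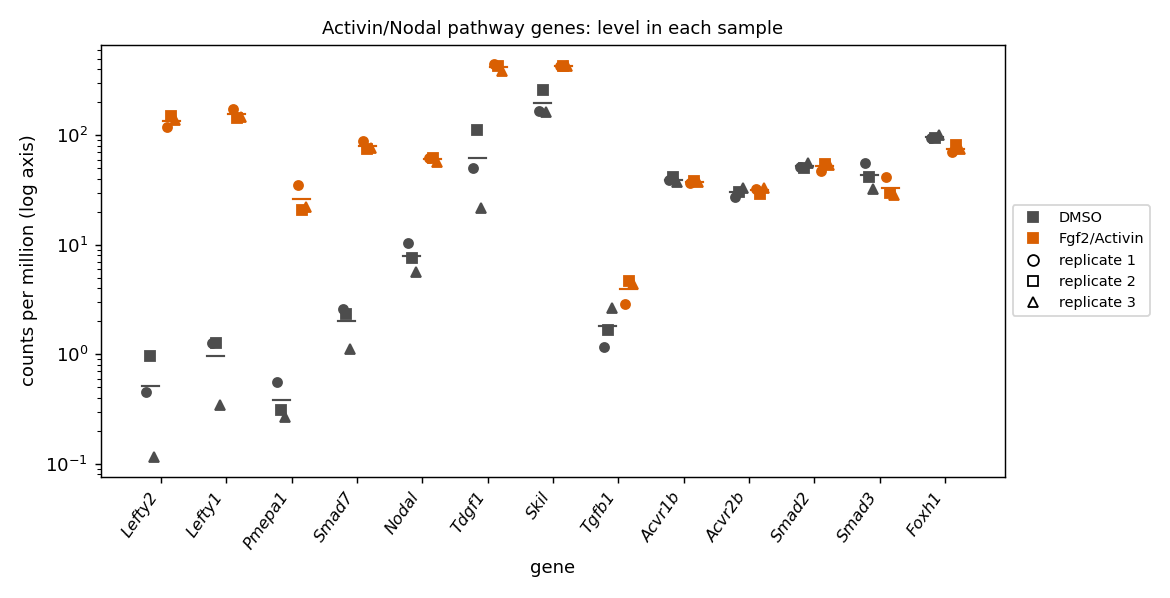
Levels in CPM on a log axis for 13 Activin/Nodal pathway genes in each of the 3 DMSO (grey) and 3 Fgf2/Activin (orange) samples, with the replicate given by the marker and the group mean by a line. Lefty2, Lefty1, Pmepa1 and Smad7 are separated by more than 5 on the log2 scale, whereas Acvr1b, Acvr2b and Smad2 overlap.

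Promoter sequences from RefSeq (GRCm38.p6, 250 bases before to 50 after each start) were given for 3 of the 9 called members, Nodal, Tdgf1 and Tgfb1. None of the 3 windows held TGTGGAT (the FoxH1 motif) or CAGACA (a Smad motif) on either strand. Of all 32851 windows, 3.38% and 21.0% held them. Lefty1, Lefty2, Pmepa1, Skil and Smad7 had no entry.

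On chromosome 1, Lefty1 and Lefty2 lie on the same strand with their starts 41.9 kb apart. Tmem63a, a membrane channel gene that starts 7.3 kb beyond the start of Lefty1, rose from 2.96, 2.35 and 2.28 CPM to 57.3, 44.3 and 44.3 CPM (4.27, SE 0.10, adjusted p = 4.7e-09, edgeR). It was singled out after its values were seen. Further out, Sde2 and Ephx1 were not called, with Sde2 at 0.24 and Ephx1 at 0.99, just under the minimum fold change. Tmem63a lies on the same strand too, and counting ignored strand.

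**Figure D2:**
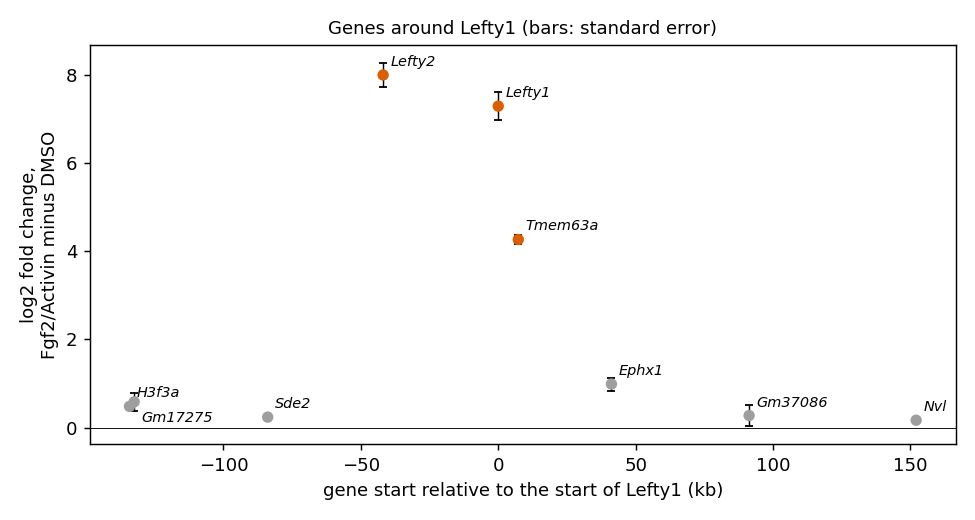
Log2 fold change (Fgf2/Activin minus DMSO) of tested genes around Lefty1 against the distance of their starts from the start of Lefty1 in kb, with bars for the standard error and orange for called genes. Lefty2, Lefty1 and Tmem63a rose, and the flanking genes lay between 0.17 and 0.99.

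In the FGF/ERK list, 8 of 50 tested members rose and 1 fell, with a median of 0.25. Over all tested genes, 1.68% were higher and 0.908% lower. The members that rose were mostly ligands and immediate early genes. Feedback inhibitors, which are common readouts of Erk activity, rose in 1 of 15 cases. At a share of 1.68%, few calls would be expected among 15 genes.

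Among the ligands, Fgf15 (chr7:144896531-144900953) rose from 0.614, 3.85 and 1.39 CPM to 37.3, 36.3 and 33.6 CPM (log2 fold change 4.42, SE 0.41). Fgf8, a ligand of the primitive streak, rose from 0.0801, 0.125 and 0.347 CPM to 2.04, 5.42 and 4.42 CPM (4.52, SE 0.69), and stayed low in all samples. Its adjusted p of 0.0016 became 0.0118 without DMSO replicate 2 and 0.0101 without Fgf2/Activin replicate 3 (edgeR). Fgf17 differed by 1.57 (SE 0.23) at 0.641 to 0.772 CPM in DMSO and 1.495 to 2.47 CPM in Fgf2/Activin. Fgf4, the main autocrine Fgf of ES cells, was at 115, 136 and 97.4 CPM in DMSO and 154, 178 and 163 CPM in Fgf2/Activin, and was not called (0.51, adjusted p = 0.029, edgeR).

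Fgf5, a ligand and marker of the post-implantation epiblast, was at 27.5, 54.2 and 58.8 CPM in DMSO and 130, 113 and 115 CPM in Fgf2/Activin. The groups did not overlap, and replicate 1 was the lowest DMSO sample. Its log2 fold change was 1.43 (SE 0.26, adjusted p = 0.0042, edgeR). The call was the least firm of these: the adjusted p was 0.077 without the replicate block, 0.18 in DESeq2, and 0.0131, 0.0145, 0.0119, 0.0104 and 0.0114 without DMSO replicate 1, DMSO replicate 2 and Fgf2/Activin replicates 1, 2 and 3.

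The receptor Fgfr2 fell from 43.6, 27.7 and 44.9 CPM to 5.59, 8.31 and 7.995 CPM (log2 fold change -2.45, SE 0.34, adjusted p = 0.00093, edgeR). Fgfr1 was lower in each Fgf2/Activin sample, at 79.9 to 85.8 CPM against 110.5 to 128 CPM, with a log2 difference of -0.55 that did not reach the minimum. Fgfr3 and Fgfr4 were at 2.08 CPM or less in all samples.

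The transcriptional targets that rose were early response genes, 3 of 17 tested. Egr1, an immediate early zinc finger factor, rose from 33.6, 23.3 and 24.1 CPM to 54.8, 81.8 and 84.5 CPM (1.44, SE 0.20). Junb, an AP-1 subunit, rose from 11.4, 4.88 and 5.21 CPM to 32.6, 17.5 and 19.0 CPM (1.71, SE 0.20). Myc rose from 11.2, 14.8 and 18.4 CPM to 59.4, 45.6 and 45.5 CPM (1.85, SE 0.31, adjusted p = 0.0029), but its adjusted p was 0.0108, 0.0165 and 0.0116 without DMSO replicate 1, 2 and 3 (edgeR).

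Il17rd, the Sef inhibitor of Fgf receptors, was the feedback gene that rose, from 37.2, 21.6 and 23.1 CPM to 85.4, 66.6 and 73.1 CPM (1.46, SE 0.19). Dusp6, the Erk phosphatase, was higher in each Fgf2/Activin sample, at 114 to 148 CPM against 75.0 to 90.0 CPM, and its log2 difference of 0.63 (adjusted p = 0.0069, edgeR) did not reach the minimum. Spry2 differed by -0.05 (SE 0.09) and Spry4 by 0.42 (SE 0.25), with overlapping groups. Spred1 was lower by 0.60 on the log2 scale (a difference of -0.60, SE 0.07). Etv4 and Etv5, Ets factors downstream of Fgf, differed by 0.63 (SE 0.29) and 0.27 (SE 0.09) and were not called. The ETS letters CCGGAA were in 1 of the 4 promoter windows given for the 9 called members (Fgf5), against 24.8% of the windows of all genes tested, 9.91% of those of all genes called higher and 14.9% of all windows.

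**Figure D3:**
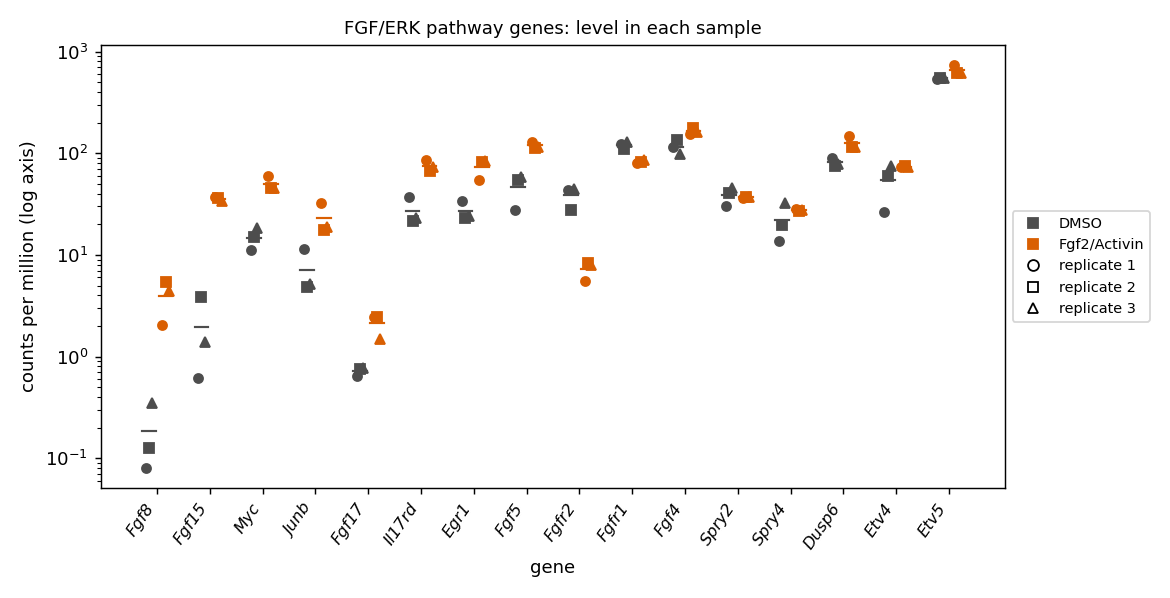
Levels in CPM on a log axis for 16 FGF/ERK pathway genes in each DMSO (grey) and Fgf2/Activin (orange) sample, with replicates as markers and group means as lines. Fgf8 and Fgf15 are separated most, Fgfr2 is lower with the factors, and Spry2, Spry4 and Etv4 overlap between groups.

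Genes known to be induced by interferon were frequent among the largest rises. The 15 largest rises among called genes that averaged 100 or more counts over the 6 samples included Lefty2, Lefty1, Trim67, Pmepa1, Gm10020, Zbp1, Oasl2, Smad7, Psmb8, Gbp2, Gbp3, Kirrel2, Irgm1 and Gbp2b, and 7 of these (Zbp1, Oasl2, Psmb8, Gbp2, Gbp3, Irgm1 and Gbp2b) are interferon-inducible. A list of 72 such genes was therefore drawn up after the values were seen, and its counts are a description. Of 63 tested members, 35 rose, 1 fell and 27 were not called, with a median of 1.68. The shares over all tested genes were 1.68% higher and 0.908% lower.

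Of 12 tested guanylate-binding proteins and immunity-related GTPases, which act in defence against intracellular pathogens, 11 rose. Gbp2 went from 0.907, 2.44 and 0.386 CPM to 42.8, 44.9 and 42.8 CPM (log2 fold change 5.17, SE 0.32, adjusted p = 3.5e-06, edgeR). Irgm1 went from 0.641, 1.66 and 0.771 CPM to 20.5, 27.3 and 27.7 CPM (4.66, SE 0.24). Gbp3 had a log2 fold change of 5.03 (SE 0.33) and Gbp2b of 4.62 (SE 0.37). The 3 levels within Fgf2/Activin were close to each other, while DMSO replicate 2 was the highest DMSO sample in all 4 genes. Igtp (1.44) and Gbp8 (2.27) lost their call in 5 and in all 6 of the 6 fits that left out a library, with log2 fold changes of 1.26 to 1.54 and 1.94 to 2.53. Tgtp1 had no count in DMSO and 39 in the 3 Fgf2/Activin libraries, at least 13.4-fold higher against a floor of 3 counts over the group, and shares 2811 bases with Tgtp2 at 99.8% identity.

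The promoters of the 4 GTPase genes among the 15 largest rises are shown because they hold the letters GAAANNGAAA, the core of the interferon-stimulated response element. They are from RefSeq (GRCm38.p6), 5′ to 3′ on the gene's strand, and capitals mark these letters on either strand (as TTTCNNTTTC on the other), overlapping matches joined.
Gbp2, chr3:142620413-142620712, plus strand: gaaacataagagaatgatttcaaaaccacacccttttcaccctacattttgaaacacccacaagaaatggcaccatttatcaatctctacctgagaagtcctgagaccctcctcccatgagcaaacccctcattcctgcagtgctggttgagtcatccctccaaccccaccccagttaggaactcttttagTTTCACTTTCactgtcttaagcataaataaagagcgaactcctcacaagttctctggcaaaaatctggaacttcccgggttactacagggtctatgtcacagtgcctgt
Gbp2b, chr3:142594597-142594896, plus strand: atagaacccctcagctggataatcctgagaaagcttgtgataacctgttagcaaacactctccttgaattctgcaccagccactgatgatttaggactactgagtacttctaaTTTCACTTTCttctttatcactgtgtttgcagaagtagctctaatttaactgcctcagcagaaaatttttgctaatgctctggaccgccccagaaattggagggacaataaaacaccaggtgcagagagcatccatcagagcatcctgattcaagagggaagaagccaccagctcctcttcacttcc
Gbp3, chr3:142559794-142560093, plus strand: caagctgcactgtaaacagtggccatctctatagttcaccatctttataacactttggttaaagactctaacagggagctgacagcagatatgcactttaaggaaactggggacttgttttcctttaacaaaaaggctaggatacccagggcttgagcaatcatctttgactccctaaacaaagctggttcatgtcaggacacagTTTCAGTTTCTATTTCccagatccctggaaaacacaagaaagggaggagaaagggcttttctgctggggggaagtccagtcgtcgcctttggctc
Irgm1, chr11:48871371-48871670, minus strand: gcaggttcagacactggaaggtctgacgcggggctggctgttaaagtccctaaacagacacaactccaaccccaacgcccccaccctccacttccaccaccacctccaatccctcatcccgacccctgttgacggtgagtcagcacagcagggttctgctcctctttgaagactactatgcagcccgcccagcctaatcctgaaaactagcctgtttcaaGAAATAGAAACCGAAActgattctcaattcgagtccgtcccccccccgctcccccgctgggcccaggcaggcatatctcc
The first matching base lies 59 bases before the annotated start in Gbp2, 137 before it in Gbp2b, 45 in Gbp3 and 30 in Irgm1. Gbp3 has a second annotated start, whose window (chr3:142560106-142560405, not printed) holds no match. Over the list, 16 of the 29 windows of members that rose (55.2%) held the letters, as did 9 of the 27 windows of members not called (33.3%). Of all 32851 windows 3.44% held them. The motif was chosen after the values were seen and is known from genes of this kind, so these shares are a description.

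Of 13 tested genes of the immunoproteasome and peptide loading, 8 rose. The catalytic subunit Psmb8 went from 0.187, 0.407 and 0.231 CPM to 11.3, 8.97 and 9.98 CPM (5.20, SE 0.29), and Psmb10 from 11.3, 14.3 and 12.1 CPM to 95.7 CPM or more in each Fgf2/Activin sample (2.96, SE 0.10). The peptide-trimming enzyme Erap1 rose by 2.83 (SE 0.12) and the loading chaperone Tapbp by 2.49 (SE 0.15). Class I heavy chain H2-K1 was at 93.7, 67.4 and 69.4 CPM against 41.5, 37.0 and 41.0 CPM, a log2 difference of 0.93 just under the minimum, while B2m was at 44.4, 5.60 and 6.67 CPM in DMSO and 9.08, 5.06 and 5.32 CPM in Fgf2/Activin. Psmb9 and Tap2 also rose, by 1.68 (SE 0.25) and 2.39 (SE 0.39). Psmb9 missed the threshold without Fgf2/Activin replicate 3 (adjusted p = 0.0147, edgeR), and Tap2 missed it without Fgf2/Activin replicate 1, 2 or 3 (0.0107, 0.0146 and 0.0185). Psmb8, Tap2 and Tapbp share 14.7%, 18.5% and 29.0% of their exon bases with overlapping genes, which unstranded counting cannot separate.

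RNA sensing and antiviral genes rose in 14 of 25 cases. Oasl2, of the oligoadenylate synthetase family, went from 0.214, 0.532 and 0.193 CPM to 15.04, 13.2 and 13.1 CPM (5.47, SE 0.34). Zbp1, a nucleic acid sensor, went from 0.187, 0.282 and 0.0386 CPM to 10.6, 8.51 and 7.68 CPM (5.64, SE 0.35). Ifitm1 was the member that fell, from 59.6, 44.7 and 40.04 CPM to 7.16, 6.74 and 6.54 CPM (-2.81, SE 0.12). The related Ifitm2 and Ifitm3 differed in opposite directions, by -0.60 and 0.78, and were not called.

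The interferon signalling chain was mostly not called, with 2 of 13 tested members higher. The transcription factor Irf1 went from 30.9, 23.3 and 11.4 CPM to 128, 91.0 and 87.7 CPM (2.27, SE 0.17). The feedback inhibitor Socs1 differed by 1.27 (SE 0.18), with an adjusted p of 0.035 without the replicate block (edgeR). Stat2, Irf7, Irf9, Jak1 and the receptor genes Ifnar1 and Ifngr1 overlapped between groups. The ligand genes Ifnb1 and Ifng did not pass the filter on low counts.

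Pluripotency genes were expressed in all 6 samples, which does not separate a naive from a later pluripotent state. Pou5f1 was at 533 to 640 CPM in DMSO and 706 to 772 CPM in Fgf2/Activin, Sox2 at 79.4 to 94.7 and 69.8 to 70.6 CPM, Sall4 at 228 to 253 and 162 to 172 CPM, and Lin28a at 890.1 to 1083 and 588 to 727 CPM. None of these 4 reached the minimum fold change. Of 10 core pluripotency genes, 1 (Tdgf1) was called, against 2.58% of all tested genes.

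In the naive pluripotency list 1 of 20 members rose and 2 fell, with a median of -0.11. The shares over all tested genes were 1.68% higher and 0.908% lower. Klf2, a naive Krüppel-like factor, fell from 20.0, 14.9 and 14.2 CPM to 5.65, 3.39 and 2.92 CPM (-2.04, SE 0.20, adjusted p = 8.3e-05, edgeR). Fbxo15 fell from 68.3, 38.5 and 32.2 CPM to 21.5, 13.1 and 12.3 CPM (-1.55, SE 0.15). Dppa5a rose from 211, 168 and 121 CPM to 556, 479.7 and 462 CPM (1.61, SE 0.10). Its transcripts match several other loci, over up to 417 bases at 95.9% identity in a transcript of Pigp, so its reads may be shared.

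The result for Nanog, a naive homeobox factor, rested on replicate 1. It was at 67.9, 5.92 and 2.78 CPM in DMSO and 67.2, 32.7 and 32.7 CPM in Fgf2/Activin, so replicate 1 did not separate the groups and replicates 2 and 3 did. It was not called over the 3 replicates (1.23, SE 0.61, adjusted p = 0.20, edgeR). Without DMSO replicate 1 its log2 fold change was 3.03 (adjusted p = 3.3e-05, edgeR), and without replicate 1 of both groups it was 2.87 (3.9e-07, edgeR). Nanog transcripts match the pseudogene Nanog-ps1 over 245 bases at 97.6% identity. They also match many other genes over shorter stretches, some of them called higher, so reads of Nanog may be shared. Esrrb had the same uneven replicate 1, at 30.2, 8.98 and 6.87 CPM in DMSO and 21.4, 11.5 and 9.21 CPM in Fgf2/Activin, and Tfcp2l1 was at 30.2, 9.36 and 7.75 CPM and 18.7, 10.2 and 9.91 CPM. The log2 differences of Esrrb, Tfcp2l1, Klf4 and Zfp42 were -0.06, -0.22, -0.06 and -0.10. Nr0b1 differed by 0.57 (SE 0.20, adjusted p = 0.078, edgeR). The summed level of the 20 tested members was 615, 385 and 295 CPM in DMSO and 865, 700 and 665 CPM in Fgf2/Activin, of which Dppa5a made the largest part.

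Of the 21 formative and primed epiblast genes, Fgf5 was the member called. Otx2 was at 167 to 207 CPM in DMSO and 207 to 217 CPM in Fgf2/Activin (0.18, SE 0.29), Pou3f1 at 72.5 to 207 and 162 to 200.3 CPM, and Dnmt3b at 2074 to 3221 and 2362 to 2931 CPM. Both groups thus expressed these epiblast markers, at levels whose differences were under the threshold. Of 9 DNA methylation enzymes none was called, against 2.58% of all tested genes. The cofactor Dnmt3l was at 59.9 to 124.5 CPM in DMSO and 38.5 to 41.2 CPM in Fgf2/Activin (-1.25, SE 0.42, adjusted p = 0.070, edgeR).

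**Figure D4:**
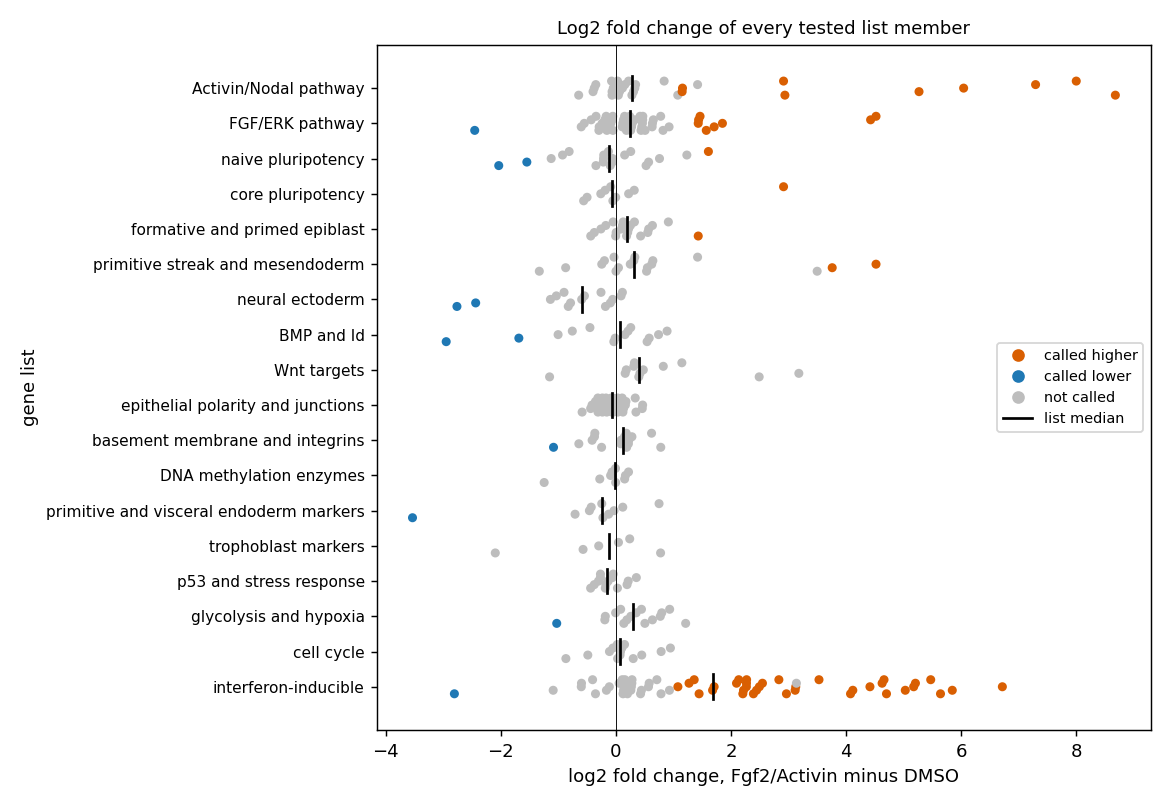
Log2 fold change (Fgf2/Activin minus DMSO, x axis) of every tested member of each gene list (y axis), with called genes in orange or blue, other genes in grey and the list median as a black line. Called members of the Activin/Nodal list include Lefty2 at 7.997, and all 43 members of the epithelial polarity and junctions list lie between -0.59 and 0.46.

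No gene of epithelial polarity and junctions was called, of 43 tested. Over all tested genes 2.58% were called, so few calls would be expected in a list of this size. The log2 differences ranged from -0.59 to 0.46 with a median of -0.07. Cdh1, the epithelial cadherin, differed by -0.07 (SE 0.08), the Par complex genes Pard6b by -0.10 (SE 0.11) and Prkcz by 0.07 (SE 0.06), and the tight junction gene Tjp1 by -0.02 (SE 0.06). Podxl, a sialomucin of the apical membrane, had the lowest value, at 331, 254 and 235 CPM against 487, 385 and 360 CPM in DMSO (-0.59, SE 0.14, adjusted p = 0.017, edgeR). Arl4c was at 157, 117 and 115 CPM against 233, 142 and 158 CPM (-0.44, SE 0.12), and Krt18 differed by -0.20 (SE 0.13). Replicate 1 was the highest in both groups for Krt18, at 247 CPM in DMSO and 189 CPM in Fgf2/Activin.

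Among 16 basement membrane and integrin genes, Lama1 fell from 11.3, 7.20 and 11.2 CPM to 5.53, 4.08 and 4.35 CPM (-1.08, SE 0.21). It missed the threshold in 5 of the 6 fits that left out a library, all but the one without DMSO replicate 1, with log2 fold changes of -0.85 to -1.19 in those 5. Nid2, a basement membrane linker, was at 543, 379 and 367 CPM against 299.5, 268 and 185 CPM (0.78, adjusted p = 0.0094, edgeR), under the minimum. Ntn1, a netrin, fell from 4.75, 1.78 and 2.66 CPM to 0.361, 0.756 and 0.591 CPM (-2.51, SE 0.52, adjusted p = 0.0086), which became 0.0143 without DMSO replicate 3 and 0.0384, 0.0281 and 0.0411 without Fgf2/Activin replicate 1, 2 and 3 (edgeR).

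Markers of other lineages were called in small numbers, from short lists. Over all tested genes, 1.68% were higher and 0.908% lower. Of 18 tested primitive streak and mesendoderm genes, Fgf8 and Wnt3 rose. Wnt3 went from 0.160, 1.19 and 0.463 CPM to 2.89, 10.6 and 10.7 CPM (3.76, SE 0.67, adjusted p = 0.0040), and missed the threshold without DMSO replicate 1 or 3 (0.0127 and 0.0217) or Fgf2/Activin replicate 2 or 3 (0.0239 and 0.0216, edgeR). The defining streak genes T, Mixl1 and Foxa2 were at 0.789 CPM or less in every sample. The list summed to 25.8 to 33.96 CPM in DMSO and 34.7 to 50.7 CPM in Fgf2/Activin.

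Of 15 tested neural ectoderm genes 2 fell, with a list median of -0.60. Irx3, an Iroquois factor, fell from 3.84, 4.70 and 7.10 CPM to 0.602, 0.953 and 1.36 CPM (-2.44, SE 0.25). Pax6 and Sox1 were at 1.77 CPM or less throughout and not called. The list summed to 212 to 299 CPM in DMSO and 241 to 254 CPM in Fgf2/Activin, mostly from Sox11, Nes and Tubb3. Whether fewer cells of a type or less RNA per cell lies behind such a difference cannot be told apart in bulk samples.

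Primitive and visceral endoderm genes were lower by their sum, 151 to 188 CPM against 204 to 257 CPM, most of it from Lrp2 (173, 143 and 179 against 229, 193 and 245 CPM, not called). Gata6, a defining marker, held 54 counts over the 3 DMSO libraries and 4 over the Fgf2/Activin libraries, a ratio of 13.1 (95% exact interval 4.83 to 49.8, counting error only). It was called, but its adjusted p was 0.022 to 0.043 in the 5 fits without DMSO replicate 1 or 3 or without any of Fgf2/Activin replicates 1, 2 and 3. Trophoblast genes summed to 22.5 to 44.4 CPM in DMSO and 20.6 to 25.8 CPM in Fgf2/Activin, and none of 6 was called. No two-cell-like marker passed the filter. The part of such cells in the results was not tested.

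In the BMP and Id list, 2 of 14 fell and none rose, against 0.908% lower and 1.68% higher over all tested genes. Id1, an inhibitor of basic helix-loop-helix factors and a BMP target, fell from 20.8, 7.98 and 6.29 CPM to 1.11, 1.74 and 1.36 CPM (-2.95, SE 0.38, adjusted p = 0.00055, edgeR). Id3 was at 38.6, 45.8 and 51.8 CPM in DMSO and 29.99, 17.4 and 17.1 CPM in Fgf2/Activin, which was not called over the 3 replicates (-1.01, adjusted p = 0.089) but was called without Fgf2/Activin replicate 1 (-1.70, 0.0027) and without replicate 1 of both groups (-1.499, 3.0e-05, edgeR). Id4 fell by 1.69 on the log2 scale but missed the threshold in 5 of the 6 fits that left out a library, all but the one without Fgf2/Activin replicate 3, with adjusted p of 0.011 to 0.039 in those 5, and with a log2 fold change of -0.88 without replicate 1 of both groups. Bmp4 and the receptor Bmpr1a overlapped between groups.

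The remaining lists held few called members. None of 12 Wnt targets, 14 p53 and stress genes or 14 cell cycle genes was called, with list medians of 0.41, -0.16 and 0.07. The Wnt targets were not flat, with log2 differences from -1.15 to 3.18. Over all tested genes 2.58% were called. Axin2 was at 9.87, 10.8 and 11.4 CPM in Fgf2/Activin and 9.02, 6.51 and 7.91 CPM in DMSO (0.48, adjusted p = 0.086, edgeR). In glycolysis and hypoxia, 1 of 16 was called: the glucose transporter Slc2a1 fell from 1397, 1523 and 1419 CPM to 767, 705 and 652 CPM (-1.03, SE 0.07, adjusted p = 9.6e-06, edgeR), or -0.95 without Fgf2/Activin replicate 3, which is under the minimum.

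The 15 largest falls by the same rule were Mir6236, Id1, Btbd17, Ifitm1, Gm5869, Greb1l, Gprc5c, Fgfr2, Ror1, Gm14165, H2afy, Klf2, Lats2, Slc30a2 and Apela. Mir6236 is named as a microRNA while the libraries were made from poly(A) RNA, so what its reads stand for is uncertain. H2afy, which encodes the histone variant macroH2A1, fell from 84.8, 43.0 and 38.9 CPM to 17.5, 10.4 and 9.07 CPM (-2.15, SE 0.13). Ror1, a receptor tyrosine kinase for Wnt ligands, fell from 34.2, 36.1 and 54.7 CPM to 6.56, 8.21 and 9.11 CPM (-2.39, SE 0.24). Gprc5c, an orphan receptor, fell by 2.55 on the log2 scale, a change of -2.55 (SE 0.19). Apela, a peptide hormone of early embryos, fell from 13.96, 10.9 and 16.6 CPM to 4.06, 3.22 and 3.65 CPM (-1.91, SE 0.13), with 29.6% of its exon bases shared with an overlapping gene. Lats2, a Hippo kinase (-2.01, SE 0.36), missed the threshold without DMSO replicate 1 or 3 or Fgf2/Activin replicate 1, 2 or 3, with log2 fold changes of -1.65 to -2.24. Greb1l (-2.55, SE 0.49) missed it in the same 5 fits, with -1.80 to -2.86, and was at 22.7, 2.85 and 4.44 CPM in DMSO. Gm5869 and Gm14165 are nearly identical to Eef1a1 and Rplp0 (96.5% over 1251 bases and 97.2% over 954 bases), and the risen Gm10020 matches other loci at up to 99.7%, Rpl15 among them, so these 3 are uncertain.

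The wild-type samples also hold a comparison in which Mek, downstream of the Fgf receptors, was inhibited: 2i minus CH, where the Mek inhibitor PD0325901 (0.4 µM) was added to the Gsk3 inhibitor CHIR99021 (3 µM). It shares no sample with the Fgf2/Activin comparison. There 138 genes were higher (0.841% of those tested) and 534 lower (3.25%). Of the 275 genes higher in Fgf2/Activin, 46 were lower in 2i (16.7% of the 275 and 8.61% of the 534), and 12 were higher (4.36% and 8.70%). Of the 149 genes lower in Fgf2/Activin, 11 were lower in 2i (7.38% and 2.06%) and 2 were higher (1.34% and 1.45%).

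Members differed by list in this second comparison. Of the 35 interferon-inducible genes that rose with Fgf2/Activin, 17 were lower in 2i and 1, Xaf1, was higher. Psmb8 had a log2 fold change of -7.73 in 2i minus CH and Gbp2 of -2.99, while Irgm1 (-0.68) was not called. Of the 8 FGF/ERK members that rose, 3 were lower in 2i: Egr1 at -6.93, Fgf8 at -4.89 and Junb at -1.45. Feedback genes not called with Fgf2/Activin were lower in 2i, with Spry4 at -2.69 and Dusp6 at -1.79, as part of 5 of 15 tested. Of the 9 Activin/Nodal members that rose, Tgfb1 was lower in 2i (-1.06) and Lefty2 higher (1.74), and Smad7 (0.70), Nodal (0.72) and Lefty1 (0.48) were not called.

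**Figure D5:**
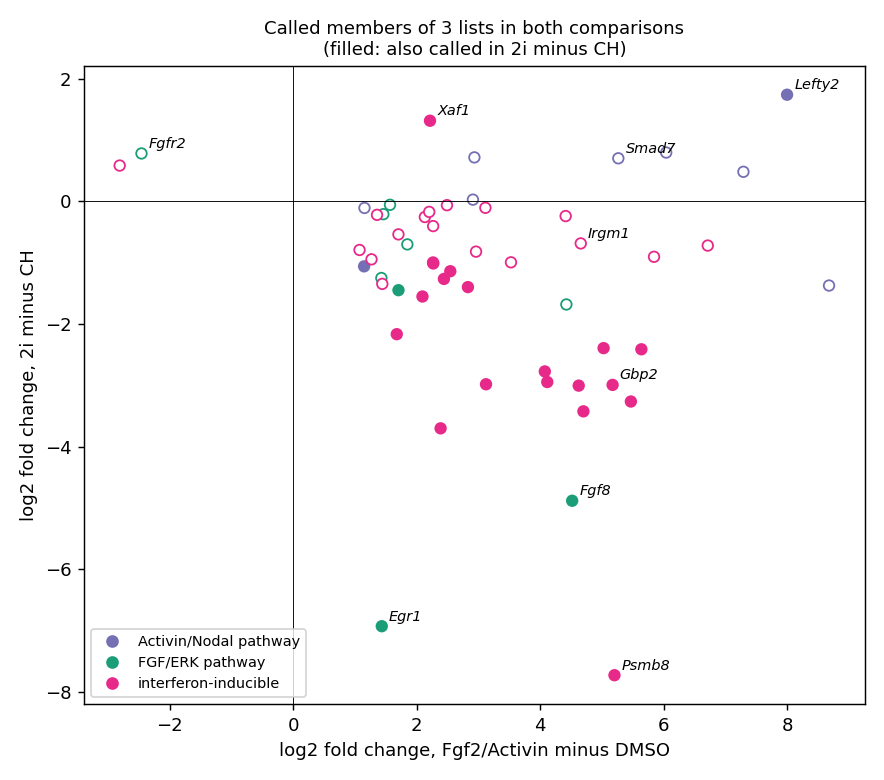
Log2 fold change in Fgf2/Activin minus DMSO (x axis) against that in 2i minus CH (y axis) for the called members of the Activin/Nodal (purple), FGF/ERK (green) and interferon-inducible (pink) lists, filled where the gene was also called in 2i minus CH. Most filled pink points lie below 0 on the y axis, Psmb8 lowest at -7.73, and Lefty2 is highest at 1.74.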

How the data were processed

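RNA was measured by poly(A) RNA sequencing (NEBNext Ultra II Directional kit, NextSeq 500). Per the labels and the study's methods, the authors aligned reads to mm10 with TopHat2 and counted them on Ensembl GRCm38 genes with HTSeq without strand. The deposited values are raw counts of 49671 genes, not normalised. Every column was mapped to a sample.

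From the counts, edgeR 4.0.16 (R 4.3.3) was run on the 12 wild-type samples of 4 groups, with TMM, filterByExpr, one coefficient per group and the replicate number as a block (6 residual degrees of freedom). Calls used an adjusted p under 0.01 and a log2 fold change above 1, the study's thresholds. Same-numbered DMSO and Fgf2/Activin samples deviated together (r = 0.82, 0.61 and 0.67 across 11200 genes averaging 100 or more counts), so the numbers were taken to pair samples. Replicate 1 stood apart in both groups, and numbers 2 and 3 correlated across numbers nearly as much (r = 0.60 and 0.57), so the pairing of 2 and 3 is weakly resolved. No 2 samples of a group agreed within counting noise. In simulated libraries of 16156 genes for this comparison, 43 of 50 genes changed by 1.5 on the log2 scale were called, 48 of 50 at 2, and 2 of 15956 unchanged ones. The simulated counts were drawn from the fitted model with its block, and genes with the lowest counts were not among those changed. The simulation therefore could not test the pairing or the recovery of low-count genes.

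Gene models were GENCODE M21 (49412 IDs matched) and promoters RefSeq. Read sharing was checked with blastn (95% identity, 75 bases). Genes named were list members, the 15 largest rises and falls among called genes that averaged 100 or more counts and did not overlap between groups, and those said to be chosen after seeing values. Members and lists were chosen with earlier results of these data known. The alternatives tried were another scaling, other filters, DESeq2 1.42.0, glmTreat, other thresholds, the 6 samples alone, no block, and each library left out. Intervals and floors cover counting error only. Some items are not reported here.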

Additional observations from a re-analysis of the deposited data

How the results depend on the processing

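The counts of 275 higher and 149 lower genes changed by over 1.5 times in several settings, the lower count in more of them. No replicate block gave 148 and 57, glmTreat against a log2 fold change of 1 gave 79 and 27, and no minimum fold change gave 572 and 514. An adjusted p under 0.05 gave 237 lower genes. Leaving out 1 library gave 181 to 231 higher and 85 to 129 lower genes. The lower count fell most, to 98, 93 and 85, without Fgf2/Activin replicate 1, 2 and 3. These falls, and that to 181 higher genes without Fgf2/Activin replicate 3, exceeded 1.5 times. Leaving out replicate 1 of both groups (chosen after seeing the data) gave 287 and 154. Another scaling, both other filters, DESeq2 and the 6 samples alone stayed within 1.5 times. In 2i minus CH, no replicate block gave 52 higher and 274 lower genes against 138 and 534. Without the block 33 of the genes examined lost their call, Tdgf1, Junb, Myc and Wnt3 among them. No named gene reversed, but a change of sign was not counted where the main log2 fold change was within 2 SE of 0. The cause of lost calls was not tested. Depth limits genes under about 1 CPM, such as Gata6, whose DESeq2 adjusted p was not given.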

Other observations

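A few Notch pathway genes were singled out after their values were seen, with no list of the pathway tested, so they do not describe the pathway as a whole. The receptor Notch3 rose from 115, 75.2 and 63.2 CPM in DMSO to 269, 211 and 233 CPM in Fgf2/Activin, a log2 fold change of 1.53 (SE 0.10), and its target Hey1 rose by 1.38 (SE 0.17). Among its ligands, Dll1 had a log2 fold change of -1.34 (SE 0.15) and Dll4 of -2.14 (SE 0.34), both called lower. The co-activator Maml3 was lower as well (-1.26, SE 0.18). Notch3, Dll1, Dll4 and Maml3 missed the threshold without the replicate block, with adjusted p of 0.0102 for Notch3 and 0.0283 for Dll1 (edgeR). Dll4 also missed it without DMSO replicate 1 or 3 and without Fgf2/Activin replicate 1 or 3 (adjusted p of 0.0145, 0.0139, 0.0201 and 0.0216), and Maml3 missed it without Fgf2/Activin replicate 1 (-1.08).

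Called genes often lay near other called genes of the same direction. Of 274 higher genes with coordinates, 67 (24.5%) had another higher gene starting within 100 kb, against 714 of 16111 other tested genes (4.43%). For lower genes the shares were 10 of 147 (6.8%) and 352 of 16238 (2.17%). Besides Lefty2 and Lefty1, examples were Kirrel2 (log2 fold change 4.86) and Nphs1 (4.12) on chromosome 7, which encode interacting membrane proteins, and the lower Irx3 (-2.44) and Irx5 (-2.99) on chromosome 8. Gene families in clusters and overlapping gene models are counted here too.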
